A study of Mus musculus with 4 samples.

Results

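This account concerns 9 genes that write or erase methylation of cytosine in DNA, chosen by symbol as a list of writers and TET erasers, out of 37574 genes in the authors' deposited table. The writers are Dnmt1, Dnmt3a and Dnmt3b with the partner genes Uhrf1 and Uhrf2, and the erasers are Tet1, Tet2, Tet3 and Tdg. Each symbol matched 1 row of the table. RNA came from oral tumours of C57BL/6 mice that carried Bmi1CreER, a tamoxifen-inducible Cre recombinase driven by Bmi1, and the Cre reporter tdTomato. All mice had received the carcinogen 4NQO for 26 weeks and tamoxifen 24 hours before collection, so both groups share the alleles, the carcinogen and the drug. Tumours were digested with collagenase and dispase, and EpCAM-positive cells were sorted into a Tomato-positive fraction (2 samples) and a Tomato-negative fraction (2 samples). Whether a sample came from 1 animal or from a pool, and at what age, is not stated in the labels.

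In mammals most methylated cytosines lie in CpG dinucleotides. Dnmt1 copies the pattern onto the new DNA strand after replication and is brought there by Uhrf1, which binds hemimethylated CpG sites, while Dnmt3a and Dnmt3b methylate sites that carried no mark. The TET dioxygenases oxidise methylcytosine in steps, and the glycosylase Tdg cuts out the most oxidised forms, which base excision repair then replaces with unmethylated cytosine. In human epidermis, DNMT1 and UHRF1 are known for keeping progenitor cells undifferentiated, and DNMT3A and TET2 are known as genes mutated in human blood cancers.

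Levels are in FPKM, fragment counts divided by transcript length and by the size of the library, with 1 value per gene and fraction that joins both samples. No SD can be given and sequencing depth is unknown. Replicate error is reflected only in the q-value that the authors deposited, and a gene was counted as called where q was below 0.05. Log2 folds are Tomato-positive over Tomato-negative and were computed from the FPKM values. Pairs of values are given with the Tomato-negative fraction first. Of 16219 tested genes 27.2% were called, 13.0% higher and 14.2% lower in Tomato-positive cells, and the median log2 fold was 0.02. A cell count and an RNA level per cell cannot be told apart in sorted bulk fractions.

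The stretches below show the DNA just before the annotated starts of Dnmt3a, Tet2 and Tdg, the members that were called. Of its 3 annotated starts, Dnmt3a appears with the outer and the inner one, since a single gene value joins the transcripts from all. The start between them is not printed. Each is 150 bases long on the strand of the gene, 5′ to 3′, ends 21 bases before the start site and overlaps no annotated exon. Capitals mark CpG, the dinucleotide that these enzymes act on. Sequences are from the RefSeq promoter table (GRCm38.p6), a later build than that of the expression table.
Dnmt3a, outer start, chr12:3806810-3806959, plus strand: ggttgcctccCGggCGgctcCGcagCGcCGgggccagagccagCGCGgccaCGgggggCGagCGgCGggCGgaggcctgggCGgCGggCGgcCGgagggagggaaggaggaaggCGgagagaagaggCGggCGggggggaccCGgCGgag
Dnmt3a, inner start, chr12:3891574-3891723, plus strand: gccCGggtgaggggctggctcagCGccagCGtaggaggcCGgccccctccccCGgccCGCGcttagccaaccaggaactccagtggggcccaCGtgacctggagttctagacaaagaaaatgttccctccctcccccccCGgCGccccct
Tet2, chr3:133544411-133544560, minus strand: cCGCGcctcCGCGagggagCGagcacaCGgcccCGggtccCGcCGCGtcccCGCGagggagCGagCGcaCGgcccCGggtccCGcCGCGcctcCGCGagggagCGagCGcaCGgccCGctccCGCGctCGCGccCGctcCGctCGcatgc
Tdg, chr10:82629668-82629817, plus strand: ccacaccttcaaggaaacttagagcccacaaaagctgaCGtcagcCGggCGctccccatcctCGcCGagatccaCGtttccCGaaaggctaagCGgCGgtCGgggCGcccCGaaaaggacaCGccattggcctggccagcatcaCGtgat

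The 4 stretches hold 21, 10, 32 and 14 CpG, in the order printed. Over the table's full windows of 300 bases, 250 before and 50 after each start, the Tet2 window held 57 CpG, a number reached by 0.152% of the 32851 windows. The median window held 7. The outer Dnmt3a window held 46 CpG, that of the start not printed 47, the inner one 18 and the Tdg window 26. All 9 members matched, with 14 windows in all. The outermost of the 3 Dnmt1 starts had 2 CpG and the innermost had 33.

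Of the 7 members that were tested, 3 rose in Tomato-positive cells and 0 fell at q below 0.05, beside 13.0% of all tested genes called higher. The members that rose were the de novo methyltransferase gene Dnmt3a, the dioxygenase gene Tet2 and the glycosylase gene Tdg. Of the other tested members, Dnmt1, Uhrf1 and Tet3 had log2 folds between -0.08 and 0.17, and Uhrf2 had a higher value in Tomato-positive cells without passing the test. Dnmt3b and Tet1 were listed below 1 FPKM in both fractions and were not tested. With 7 tested genes the share called is a count of named genes and not a property of the list.

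**Figure D1:**
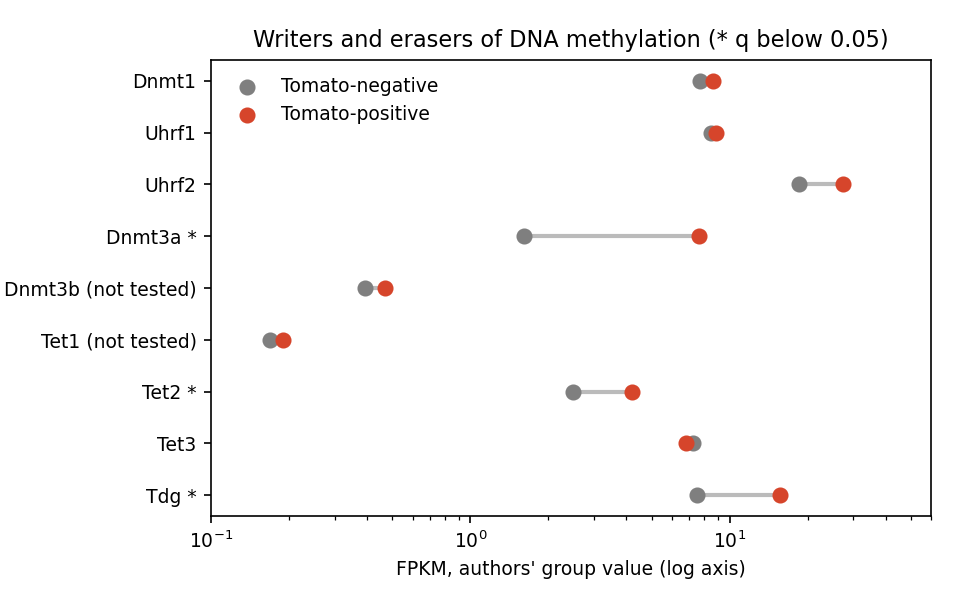
FPKM of the 9 members on a log axis, with the Tomato-negative fraction in grey and the Tomato-positive fraction in red, 1 group value each and no error bar. Dnmt3a, Tdg and Tet2 (asterisks) have the called gaps, and the Tet3 points lie in the opposite order.

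Among the writers, Dnmt3a (chromosome 12, 3806006 to 3914443 in mm9 as the table lists it, plus strand) had the largest fold difference, while the gap in FPKM was larger for Uhrf2. It stood at 1.62 FPKM without and 7.64 FPKM with the Tomato label. The log2 fold was 2.24, or 4.73-fold, with q = 0.000405 in the authors' deposited table, the lowest q the table holds. Of all tested genes with a finite fold, 361 had a larger log2 fold, which is 2.25%. The row shares its locus with 2 others: the antisense RNA Gm10485 was listed at 0.0426 and 0.138 FPKM and AC159324.1 at 0 in both fractions.

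Dnmt3b, the other de novo enzyme (chromosome 2, 153474425 to 153513466), was listed at 0.392 FPKM without and 0.468 FPKM with the Tomato label. The Dnmt3a level was 4.12 times that of Dnmt3b in Tomato-negative cells and 16.3 times in Tomato-positive cells. Gm14490, whose Ensembl ID now bears the name Dnmt3c and whose transcript matches Dnmt3b at 93.9% identity over 1434 bases, was listed at 0 and 0.0400 FPKM.

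The maintenance genes did not pass the test. Dnmt1 (chromosome 9, 20711649 to 20757317, minus strand) stood at 7.68 FPKM without and 8.64 FPKM with the Tomato label, with a log2 fold of 0.17 and q = 0.574 in the authors' deposited table. Uhrf1 (chromosome 17, 56442743 to 56462909) stood at 8.47 and 8.89 FPKM, with a log2 fold of 0.07 and q = 0.901 in the authors' deposited table. A q-value above the threshold does not show that either gene was equal between fractions.

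Uhrf2, a relative of Uhrf1 that binds hydroxymethylcytosine and that does not replace Uhrf1 in maintenance (chromosome 19, 30105002 to 30168212), had the highest level of the 9 genes in both fractions. It was listed at 18.6 FPKM without and 27.4 FPKM with the Tomato label, with a log2 fold of 0.56 and q = 0.208 in the authors' deposited table. Of 374 tested genes with a mean level within 1.5-fold of that of Uhrf2 and an absolute log2 fold within 0.1 of its own, 40.6% were called. Changes of this size therefore fell on either side of the threshold in this table.

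**Figure D2:**
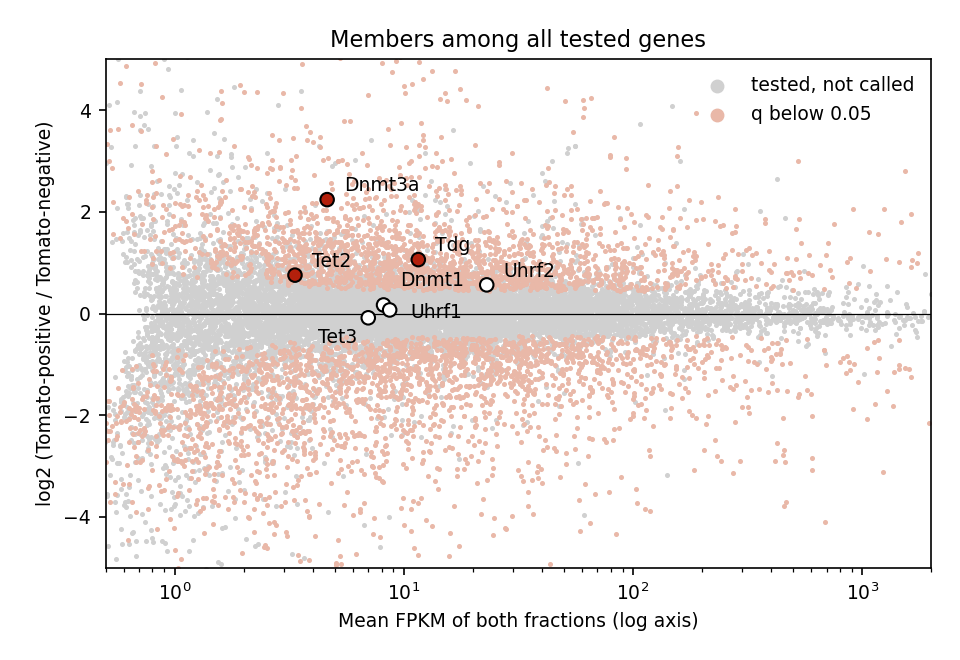
Log2 fold (Tomato-positive over Tomato-negative) against the mean FPKM of both fractions (log axis) for tested genes, with called genes in light red. The 7 tested members are circled, filled where called, and Dnmt3a lies at 2.24 while Dnmt1, Uhrf1 and Tet3 lie between -0.08 and 0.17. Of 16010 tested genes with a finite fold, 181 lie outside the axes.

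The makeup of the methyltransferase transcripts differed between the fractions. Summed over Dnmt1, Dnmt3a and Dnmt3b, the level was 9.69 FPKM without and 16.7 FPKM with the Tomato label. Dnmt1 made up 79.3% of that sum without and 51.6% with the label, and Dnmt3a made up 16.7% and 45.6%. The Dnmt1 level was thus 4.75 times that of Dnmt3a in Tomato-negative cells and 1.13 times in Tomato-positive cells. These are shares of length-scaled group values and carry no test of their own.

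Among the erasers, Tet2 (chromosome 3, 133126642 to 133207354, minus strand) rose from 2.49 to 4.21 FPKM. The log2 fold was 0.75, or 1.69-fold, with q = 0.00109 in the authors' deposited table. Of 247 tested genes of like level and size of change, by the windows used for Uhrf2, 33.6% were called. Tet2 is the member of its family whose protein lacks a CXXC zinc finger, a fold that binds unmethylated CpG.

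Tet3 (chromosome 6, 83312366 to 83391672, minus strand) was the most abundant of the TET transcripts. It stood at 7.20 FPKM without and 6.79 FPKM with the Tomato label, a log2 fold of -0.08 with q = 0.803 in the authors' deposited table. It was the single member listed lower in Tomato-positive cells. Tet1 (chromosome 10, 62267317 to 62361866), known from embryonic stem cells and germ cells, had the lowest level of the 9 genes at 0.169 and 0.189 FPKM.

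The TET sum was 9.87 FPKM without and 11.2 FPKM with the Tomato label. Tet3 held 73.0% of it without and 60.7% with the label, and Tet2 held 25.3% and 37.6%. The Tet3 level was 2.89 times that of Tet2 in the first fraction and 1.61 times in the second. Tet1 held 1.71% and 1.69%.

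**Figure D3:**
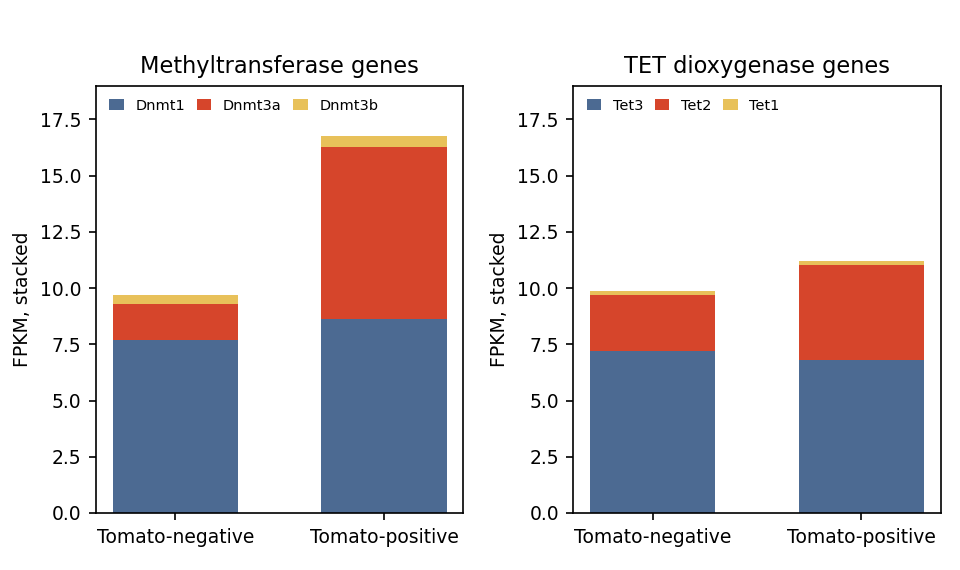
Stacked FPKM of the DNA methyltransferase genes (left) and of the TET genes (right) in each fraction, 1 group value per gene. The Dnmt3a segment takes 16.7% and 45.6% of the left bars, and the Tet2 segment 25.3% and 37.6% of the right ones.

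Tdg went from 7.50 up to 15.6 FPKM, with a log2 fold of 1.06, or 2.09-fold, and q = 0.000405 in the authors' deposited table. The second most abundant member in Tomato-positive cells, it had ranked 4 of 9 in Tomato-negative cells. Its row (chromosome 10, 82092572 to 82153395) shares the locus with Glt8d2, a gene on the other strand whose transcript overlaps the 3′ end of Tdg by 367 bases. Glt8d2 was listed at 1.37 and 0.346 FPKM, lower in Tomato-positive cells (authors' deposited table, q = 0.242).

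The separate value of Tdg is uncertain, because processed pseudogenes carry long stretches of its sequence. The Tdg transcript matched 4 such copies in the GENCODE M21 transcripts, of which 2 stand in the table. Gm9855, at 99.2% identity over 1194 bases, went from 5.86 to 10.8 FPKM, a log2 fold of 0.89 with q = 0.00499 in the authors' deposited table. Tdg-ps, listed as Gm5806, at 98.7% identity over 2968 bases, stood at 3.42 and 5.19 FPKM, a log2 fold of 0.60 with q = 0.0547 in the authors' deposited table. Both copies had the same direction as Tdg, and how reads were divided among the rows was not tested. Uhrf1 has a like copy, Gm5648, at 98.3% identity over 1590 bases, which was listed at 2.74 and 3.94 FPKM (authors' deposited table, q = 0.250). A search of the other members at 90% identity or more over at least 150 bases returned only the Dnmt3b match given above.

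**Figure D4:**
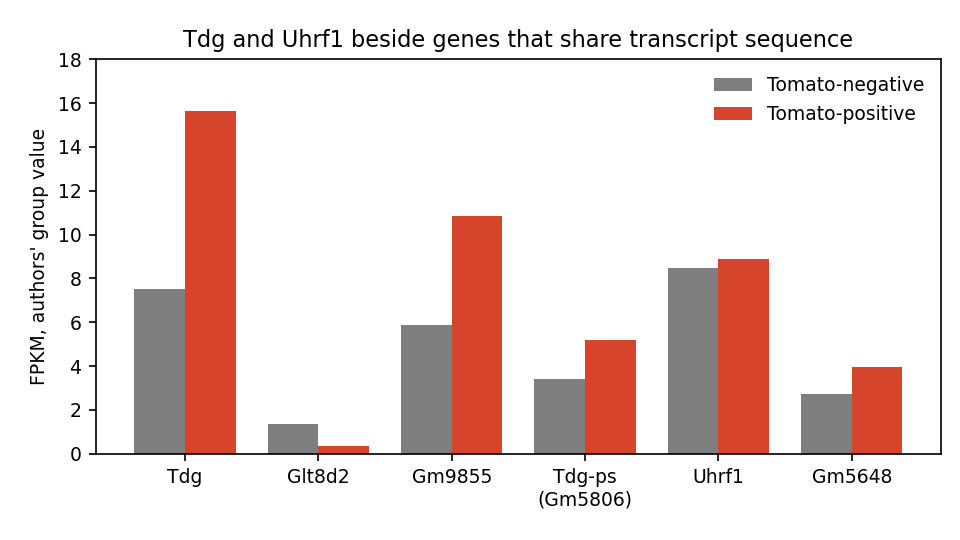
FPKM of Tdg and Uhrf1 beside genes that share transcript sequence with them, in Tomato-negative (grey) and Tomato-positive (red) cells, 1 group value each. Tdg, Gm9855 and Tdg-ps are all higher in Tomato-positive cells, and Glt8d2 is lower.

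Counts for the lists that follow are given beside the shares over all tested genes, 13.0% called higher and 14.2% lower. Of 12 tested partners of Dnmt1, Dnmt3a, Dnmt3b and Uhrf1, 1 rose and 0 fell, with 8.33% called and a median log2 fold of 0.24. That 1 call was not made at q below 0.01. Cdca7l, a relative of the Cdca7 protein that recruits the remodeller Hells, rose from 4.13 to 6.42 FPKM (authors' deposited table, q = 0.0426). Hells, needed for methylation of repeats, stood at 27.1 and 24.4 FPKM and Cdca7 at 18.2 and 13.9 FPKM. Usp7, which deubiquitinates and stabilises Dnmt1 and Uhrf1, stood at 50.2 and 34.1 FPKM. Hells, Cdca7 and Usp7 were not called (authors' deposited table, q = 0.846, 0.319 and 0.183). They were the only tested partners listed lower in Tomato-positive cells, and all other tested partners were listed higher. The germ cell gene Dppa3 was listed at 0.0776 FPKM in Tomato-negative cells and 0 in Tomato-positive cells, untested. Dnmt3l, of the same list, stood at 4.54 and 6.50 FPKM and was not called (authors' deposited table, q = 0.359).

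Of 10 genes for readers of methylated CpG or relatives of these readers, 1 rose and 0 fell, against 27.2% of all tested genes called. The median log2 fold was 0.07. The reader that rose was Zbtb33, which encodes the zinc finger protein Kaiso, from 5.33 to 8.76 FPKM (authors' deposited table, q = 0.00345). Mbd2, which recruits the NuRD deacetylase complex to methylated DNA, stood at 99.0 and 118 FPKM and was not called.

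Of 14 tested genes of the excision steps beside or after Tdg, 0 rose and 3 fell. These 21.4% stand beside 14.2% of all tested genes called lower and 27.2% called in either direction. With 14 tested genes the share is a count of named genes and not a property of the list. The median log2 fold was -0.09, and 1 of the 3 was called at q below 0.01. The repair polymerase gene Polb fell from 103 to 68.6 FPKM (authors' deposited table, q = 0.00399). The glycosylase gene Neil2 fell from 1.03 to 0.300 FPKM (authors' deposited table, q = 0.0414). The stress gene Gadd45g fell from 12.1 to 6.99 FPKM (authors' deposited table, q = 0.0217). Mbd4, the other mammalian thymine glycosylase, was listed at 1.37 and 1.41 FPKM and was not called.

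The methyl donor genes had 4 of 15 tested members higher and 0 lower. These 26.7% stand beside 13.0% of all tested genes called higher and 27.2% called in either direction. With 15 tested genes the share is a count of named genes and not a property of the list. The median log2 fold was 0.41. Mat2a, which makes S-adenosylmethionine, the methyl donor of the Dnmt enzymes, rose from 33.3 to 48.1 FPKM (authors' deposited table, q = 0.0125). Ahcy, which clears the product S-adenosylhomocysteine, rose from 9.67 to 17.1 FPKM (authors' deposited table, q = 0.00825). Mtap, which salvages methionine, rose by a log2 fold of 2.39, from 9.51 to 50.0 FPKM. Ahcyl2, an Ahcy-like gene, rose by a log2 fold of 2.20, from 13.8 to 63.7 FPKM. The liver enzymes Mat1a and Bhmt were listed at 0 in both fractions.

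Of 14 tested genes that supply or bind the TET enzymes, 2 were called higher and 2 lower. That share, 28.6%, is about the 27.2% of all tested genes, and 1 of those lower was called at q below 0.01. Idh1, a source of the TET cosubstrate 2-oxoglutarate in the cytosol, fell from 92.2 to 46.6 FPKM (authors' deposited table, q = 0.000405). Idh3a, a subunit of the mitochondrial enzyme that makes the same compound, rose from 36.2 to 59.5 FPKM. D2hgdh, which removes the TET inhibitor D-2-hydroxyglutarate, fell from 2.88 to 1.45 FPKM (authors' deposited table, q = 0.0256). Slc2a1, which carries glucose and oxidised vitamin C, rose from 64.3 to 203 FPKM. Ogt, a binding partner of the TET proteins, stood at 26.7 and 23.5 FPKM and was not called.

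Most listed germline genes that DNA methylation keeps silent in somatic mouse cells were near 0 in both fractions, with Brdt and Tex101 the exceptions. Of 16 such genes, 14 were below 1 FPKM in both, 2 were tested and 0 were called at q below 0.05 in Cuffdiff, also 0 at an unadjusted p below 0.05. Mael, Hormad1, Stk31, Rpl10l and Zfp42 were listed at 0 in both fractions. Dazl was listed at 0 and 0.0276 FPKM, and Asz1 and Slc25a31 were listed at 0 in Tomato-positive cells alone. Brdt, at 2.20 and 2.27 FPKM, and Tex101, at 1.15 and 0.127 FPKM, were the tested ones.

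Cell cycle genes are given beside Dnmt1 and Uhrf1, whose transcripts are known to peak in S phase. Of 22 DNA replication genes 4 rose and 0 fell, with a median log2 fold of 0.29. These 18.2% stand beside 13.0% of all tested genes called higher and 27.2% called in either direction. The genes that rose were those for the helicase subunits Mcm5, from 12.2 to 23.0 FPKM, Mcm4, from 11.2 to 17.8 FPKM, and Mcm2, from 7.50 to 11.1 FPKM, and that for the ribonucleotide reductase subunit Rrm1, from 17.6 to 27.4 FPKM. Of 16 genes of G2 and mitosis 15 rose, which is 93.8%, with a median log2 fold of 1.26. Those with the largest log2 folds were the spindle checkpoint kinase genes Ttk, at 1.69, and Bub1, at 1.63, the mitotic kinase genes Cdk1, at 1.69, Aurka, at 1.47, and Plk1, at 1.35, and the kinetochore motor gene Cenpe, at 1.35. Dnmt1 and Uhrf1, at log2 folds of 0.17 and 0.07, lay inside the range of the replication genes, -0.57 to 0.91, and below that of the mitotic genes, 0.84 to 1.69. The motifs TTTCCCGC and TTTGGCGC, spellings of the E2F site of S phase genes, stood on either strand in 1 of the 14 member windows, at the innermost Dnmt1 start, and in 1.56% of all windows. The AP-1 motif TGANTCA stood in 0 of the 14 and in 7.81% of all windows.

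**Figure D5:**
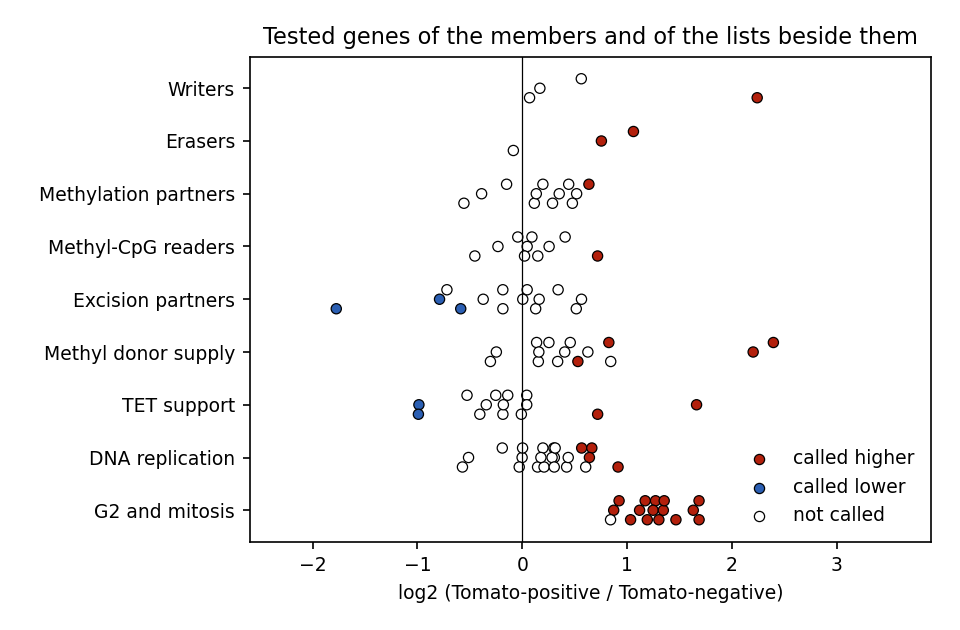
Log2 fold of each tested gene, 1 point per gene, for writers, erasers and the lists beside them, with points spread vertically only for legibility. Red points were called higher, blue points lower and open points were not called, and 15 of 16 genes of G2 and mitosis are red.

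Both fractions held transcripts of stratified epithelium, and both also held transcripts of other cells. Summed over 8 genes each, keratinocyte markers stood at 5388 FPKM without and 19875 FPKM with the Tomato label, with 6 called higher and Krt15 lower. Most of both sums came from Krt14, at 2292 and 13864.5 FPKM, and Krt5, at 1670 and 5176 FPKM (authors' deposited table, q = 0.0337 and 0.0274). Krt15 fell from 1078 to 127 FPKM, and Cdh1, at 96.3 and 85.3 FPKM, was listed lower and not called. Fibroblast markers stood at 575 and 91.1 FPKM with 8 of 8 lower, muscle markers at 1718 and 128 FPKM with 7 of 8 lower, and macrophage markers at 364 and 106 FPKM with 7 of 8 lower. Lymphocyte markers stood at 21.1 and 5.72 FPKM with 1 of 4 tested lower. Endothelial markers stood at 31.2 and 49.4 FPKM with 6 of 8 higher, and neutrophil markers at 48.9 and 54.1 FPKM with 4 of 7 tested higher. The neutrophil list member called lower was Ltf, also made by glands, from 40.9 to 2.67 FPKM. Camp, at 0.954 and 0.645 FPKM and not called, was also listed lower. So was Ly6g, at 0.636 and 0.302 FPKM and not tested. Without Ltf, left out after its values were seen, the neutrophil sum over 7 genes was 8.07 FPKM without and 51.5 FPKM with the Tomato label. Csf3r, the receptor of granulocyte colony-stimulating factor, rose 26.8-fold, from 0.637 to 17.1 FPKM. Retnlg, a gene of mouse neutrophils, rose 22.4-fold, from 0.856 to 19.2 FPKM. No marker of these lists was at 0 in either fraction. Their part in the values of Dnmt3a, Tet2 and Tdg was not tested.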

How the data were processed

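RNA was sequenced from 2 Tomato-positive and 2 Tomato-negative samples. Per the submitters' processing notes, the authors used TopHat, Cuffdiff and the mouse build mm9. Their versions, the strand setting and the annotation were not given in the sources used here. The authors deposited 1 FPKM value per gene and fraction, joining both samples, so no SD, no leave-one-out value and no depth per sample could be had. The p-value and q-value are those of the authors' deposited table. Benjamini-Hochberg values computed from the p-values of the 16219 tested genes differed from the q-values by at most 5.27e-07, and the function was tested on simulated data. The lowest p-value, 5e-05, is shared by 2004 genes.

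Members and gene lists were chosen with earlier results of these data known. All 9 members are named, and of each pathway list up to 6 called genes with the largest changes and those listed at 0. Cell marker lists are given by counts and sums. Other genes of either kind of list were named after their values were seen. Near copies were searched with BLAST 2.17.0 in GENCODE M21 transcripts. Coordinates are mm9 as deposited, and strands and sequences are from GRCm38 annotation. Computations ran in Python 3.11.15, with NumPy 2.4.6, pandas 2.3.3, Biopython 1.88 and matplotlib 3.10.9.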

Additional observations from a re-analysis of the deposited data

How the results depend on the processing

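No paired analysis was possible because the table holds 1 value per fraction and no value per sample, and leaving out replicates was not run for the same reason. Dnmt3a, Tdg and Tet2 were the 3 members called at q below 0.05, and the same 3 genes were called at q below 0.01 (19.4% of all tested genes called), at q below 0.10 (32.7%), with a change of at least 1.5-fold (25.2%), and with p-values adjusted over the 15286 genes with a mean of at least 1 FPKM (27.4%). A pseudocount cannot turn the sign of a fold. With 1 FPKM added, the log2 fold was 1.72 for Dnmt3a, 0.97 for Tdg and 0.58 for Tet2. Centring on the median of tested genes (0.02) and rescaling to equal sums without small RNA (-0.03) shift all genes alike, by less than the fold of any member. Over the lists other than cell markers, 32 of 103 tested genes were called, 26 at q below 0.01 and 31 with a mean of at least 1 FPKM. Over all tested genes, 27.2% were called, and 19.4% at q below 0.01. The 32 include 15 genes of G2 and mitosis and 4 of DNA replication. Of 60 counts recomputed by list and direction, 4 moved by over 1.5 times. At q below 0.01, methylation partners had 0 higher, and excision partners and TET support genes had 1 lower each. With a mean of at least 1 FPKM, lymphocyte markers had 0 lower. The ratio of the neutrophil marker sums, Tomato-positive over Tomato-negative, was 1.11 and, without Ltf, an alternative chosen after seeing the data, 6.38. Low levels limit Dnmt3b and Tet1, which the authors did not test.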
